A study of Mus musculus with 48 samples.

Results

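Of the 48 tumor RNA libraries in the series, 6 were compared here, 3 from WT mice treated with anti-PD-1 and 3 from WT mice treated with control IgG. They were chosen by the sample titles, which place both groups in the second of 2 experiments, and the published timeline of that experiment puts the harvest at day 7. All mice were C57BL/6J, aged 4 weeks on arrival with a further 2 weeks in the facility before use, and carried a subcutaneous flank tumor of B16-D5, a subclone of the B16 mouse melanoma line, injected 8 days before treatment. Each antibody was given at 250 µg in 200 µL on day 0 and again on day 3, and 3 untreated WT tumors of the same experiment served as a second reference, while 12 further tumors (9 from iNOS KO mice and these 3) helped to estimate the spread.

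Each library came from the tumor of 1 mouse and holds RNA of melanoma and host cells together, so fewer cells of a type and less RNA per cell cannot be told apart. The tumor line is a single subclone, and its cells keep the iNOS gene in either host. The treatment field of the labels matched the title in 0 of the 6 libraries, and the time field read day 7 in 0 of 6, so the contrast rests on the titles. The tissue label could be checked: the melanocyte enzymes Dct and Tyrp1 lay between 2815 and 5751 CPM in the 6 libraries (CPM, counts scaled to the library's TMM-adjusted total).

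PD-1 is an inhibitory receptor of activated T cells. Antibodies that block it can release T cells to secrete IFN-γ, which acts through its receptor and JAK kinases to switch on chemokines, guanylate-binding proteins, immunity-related GTPases and antigen processing genes in tumor and host cells. Inducible nitric oxide synthase (iNOS, gene Nos2) makes nitric oxide from arginine, and IRF1 is among the factors known to act on its promoter.

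The comparison was uneven in depth. The anti-PD-1 tumors are numbered 2, 3 and 4 in their titles and had 35616739, 11625862 and 18797177 counts on genes, the IgG tumors 1, 2 and 3 had 33948155, 32230983 and 27233047, and the untreated tumors had between 35710121 and 37816043. Over 1502 genes of olfactory, vomeronasal and taste receptors, which serve sensory epithelia, the anti-PD-1 tumors had summed levels of 50.7, 2828 and 1172 CPM. The same sum was 56.3, 121 and 234 CPM in the IgG tumors and between 16.3 and 35.5 CPM in the untreated tumors. Spread over all exons at the rate seen on receptor genes, such counts would make up 0.12%, 8.84% and 3.11% of the anti-PD-1 libraries and between 0.13% and 0.55% of the IgG libraries. Anti-PD-1 tumors 3 and 4 were more like each other (Spearman correlation 0.93 across tested genes) than either was like tumor 2 (0.83 and 0.87), and the IgG tumors correlated at 0.91 to 0.92. For this reason the text describes genes with a mean of at least 10 CPM over the 18 libraries of the experiment, called well expressed here, and gives values with and without tumors 3 and 4. The part of depth and of these stray counts in any difference was not tested.

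**Figure D1:**
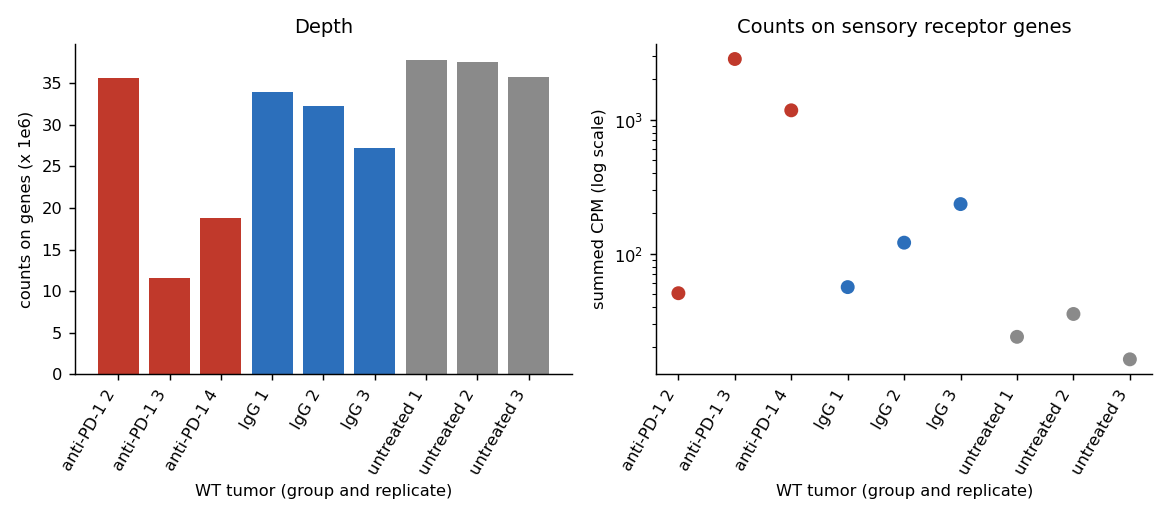
Counts on genes (left, bars) and CPM summed over 1502 sensory receptor genes (right, points, log scale) in each of the 9 WT tumors of the second experiment. Anti-PD-1 tumors 3 and 4 have the lowest depth and the highest receptor counts, 2828 and 1172 CPM.

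Of 30837 genes tested with edgeR's quasi-likelihood test, 0 (0.0%) had an adjusted p-value under 0.05, and the smallest adjusted p was 0.305. P-values here measure the spread between these tumors of 3 mice per group. An unadjusted p under 0.05 was reached by 3261 genes (10.6%) in the higher and 1773 (5.75%) in the lower direction after anti-PD-1. Among the 9608 well-expressed genes the balance was the other way, with 401 (4.17%) higher and 1706 (17.8%) lower, and 26.7% of them had a log2 fold change above 0. The median log2 fold change was 0.68 over all tested genes and −0.20 over well-expressed genes, so a well-expressed gene at 0 stood above most of its peers. When the TMM scaling was set from the well-expressed genes alone, their median became 0.00 and the split became 1252 higher and 996 lower, with 0 adjusted calls.

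Other tests and other sets of tumors changed these counts. DESeq2's Wald test gave an adjusted p to 2140 of the well-expressed genes and called 59 of those higher (2.76%) and 265 lower (12.4%), and edgeR without the filter on low counts called 982 genes. Without anti-PD-1 tumor 2, edgeR called 2271 genes, 1728 of them lower, and without IgG tumor 3 it called 4. Leaving out tumor 2 moved the well-expressed genes lower at an unadjusted p to 3870, whereas leaving out tumor 3 moved them to 166 and leaving out tumor 4 to 787. Without IgG tumor 2 there were 249 higher and 880 lower, and without anti-PD-1 tumor 4 only 76 were higher. With tumors 3 and 4 both left out, which leaves 1 anti-PD-1 tumor, 71 were higher and 7 lower.

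Tumor by tumor, anti-PD-1 tumor 2 lay above all 3 IgG tumors in 2100 well-expressed genes (21.9%) and below all of them in 1011 (10.5%). Tumor 3 lay above in 1228 (12.8%) and below in 6431 (66.9%), and tumor 4 above in 1750 (18.2%) and below in 4756 (49.5%). With the TMM scaling from all tested genes, the excess of lower genes was therefore in tumors 3 and 4, and tumor 2 leaned the other way. Under that scaling the mean log2 level of well-expressed genes was 5.10 and 5.36 in tumors 3 and 4. It was 5.60 in tumor 2 and 5.55 in each IgG tumor. Counts of genes above or below all IgG tumors, here and for the lists below, contain this offset. All 3 anti-PD-1 tumors lay above all 3 IgG tumors in 533 well-expressed genes (5.55%) and below them in 682 (7.1%), and over all tested genes these shares were 9.02% and 2.85%. With the receptor-gene rate subtracted from every gene by its exonic length, 506 (5.27%) of the higher and 575 (5.98%) of the lower genes were still apart, and the genes named next were taken from these. An exact permutation test of 3 tumors against 3 cannot give a two-sided p below 0.1 for any single gene.

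The untreated tumors were set beside both groups in these genes. Among the 506 higher genes, only the IgG tumors lay wholly outside the untreated tumors in 253 (50.0%) and only the anti-PD-1 tumors in 42 (8.3%), with both outside in 7 and neither in 204. Among the 575 lower genes, only the anti-PD-1 tumors lay outside in 211 (36.7%) and only the IgG tumors in 127 (22.1%), with both outside in 7 and neither in 230. The genes were chosen because the anti-PD-1 and IgG tumors did not overlap, so the splits describe these sets only. Over all well-expressed genes, the median log2 fold change against untreated tumors was −0.24 for anti-PD-1 and −0.06 for IgG. These splits contain that offset, and the same shares over all well-expressed genes are not given here. Which group had moved was not tested.

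The 12 highest-ranked genes above IgG were Pex7, 0610009B22Rik, Gm12350, Gm8186, Atp5mpl, Ndufs4, Nudcd2, Ube2d-ps, Selenoh, Eps8l1, Mtus2 and Timm10, with log2 fold changes between 0.73 and 1.44. Several encode mitochondrial proteins, and 3 are pseudogenes. None passed the adjusted threshold in edgeR (adjusted p = 0.305 for each).

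Atp5mpl, a small subunit of mitochondrial ATP synthase (ENSMUSG00000021290.6, GRCm38 chromosome 12, 111961375 to 111966977), had 88.0, 160.1 and 171.8 CPM in anti-PD-1 tumors 2, 3 and 4. It had 58.6, 51.1 and 64.8 CPM in the IgG tumors and between 98.9 and 107.7 CPM in the untreated tumors. The anti-PD-1 and IgG tumors did not overlap, the untreated tumors lay between tumor 2 and tumor 3, and the log2 fold change against IgG was 1.27 ± 0.302 (SE, n = 3 tumors per group). DESeq2 called Atp5mpl (adjusted p = 0.0355), and its log2 fold change with tumor 2 as the only anti-PD-1 tumor was 0.61.

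Ndufs4, an accessory subunit of respiratory complex I (ENSMUSG00000021764.8, chromosome 13, 114287795 to 114388258), had 18.5, 24.6 and 28.2 CPM after anti-PD-1 and 12.2, 9.07 and 14.9 CPM after IgG. Timm10, a chaperone of the space between the mitochondrial membranes (ENSMUSG00000027076.10, chromosome 2, 84826997 to 84830213), had 18.8, 30.1 and 28.6 CPM after anti-PD-1 and 12.8, 10.9 and 16.97 CPM after IgG. Its untreated tumors had between 26.4 and 26.9 CPM, so all 3 of them exceeded every IgG tumor. The log2 fold changes were 0.98 ± 0.233 for Ndufs4 and 0.93 ± 0.227 for Timm10.

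Pex7, the receptor that brings enzymes with a type 2 signal into peroxisomes (ENSMUSG00000020003.16, chromosome 10, 19853900 to 19907689), had the smallest unadjusted p of the 12 (6.4e-05). It had 11.6, 16.98 and 17.1 CPM after anti-PD-1, 5.40, 6.73 and 9.21 CPM after IgG and between 8.45 and 10.54 CPM in untreated tumors. Here the anti-PD-1 tumors lay above both other groups. The same was true of Eps8l1, a relative of the actin regulator Eps8, with 13.1, 17.5 and 15.9 CPM after anti-PD-1, 8.20, 7.36 and 10.2 CPM after IgG and at most 10.9 CPM in untreated tumors.

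Selenoh, a nuclear selenoprotein, had 57.9, 76.1 and 72.5 CPM after anti-PD-1 and between 38.5 and 44.7 CPM after IgG. Nudcd2, a co-chaperone of the NudC family (ENSMUSG00000020328.10, chromosome 11, 40733667 to 40740046), had 22.9, 30.9 and 25.9 CPM after anti-PD-1 and between 13.9 and 17.3 CPM after IgG. The pseudogenes Gm12350, Gm8186 and Ube2d-ps had log2 fold changes of 1.05, 1.37 and 0.80, and their counts are uncertain because reads from a parent gene of near-identical sequence could be assigned to them. Pseudogenes made up 34 of the 506 higher genes (6.72%), 2 of the 575 lower genes (0.348%) and 75 of all 9608 well-expressed genes (0.781%).

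Promoter sequences of Timm10 and Nudcd2 are shown because growth and respiratory genes often carry binding motifs of ETS factors and NRF1 close to their start. RefSeq promoters (GRCm38.p6, 250 bases before to 50 after the start) matched 17 of the 24 genes named by rank. Both strands were searched for the ETS motif CCGGAAG and the NRF1 motif, GCGCA and GCGC with any 1 base between them. The last 150 bases before the start follow, 5′ to 3′, with the motif in capitals. In Timm10 it is the ETS motif on the minus strand, 16 to 10 bases before the start, and in Nudcd2 the NRF1 motif, 11 to 2 bases before it.
Timm10 (chr2:84826871-84827020, plus strand): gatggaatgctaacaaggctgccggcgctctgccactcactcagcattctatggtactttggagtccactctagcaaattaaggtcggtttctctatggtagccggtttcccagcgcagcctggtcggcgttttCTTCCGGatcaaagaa
Nudcd2 (chr11:40733511-40733660, plus strand): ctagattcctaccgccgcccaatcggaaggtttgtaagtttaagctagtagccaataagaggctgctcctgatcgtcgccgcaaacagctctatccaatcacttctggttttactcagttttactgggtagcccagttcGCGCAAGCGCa
Among matched promoters, the ETS motif was in 121 of 362 higher genes (33.4%), 95 of 438 lower genes (21.7%), 1668 of 7532 well-expressed genes (22.1%) and 8.86% of all 32851 promoters. The NRF1 motif was in 62 of the higher (17.1%), 59 of the lower (13.5%), 954 of the well-expressed (12.7%) and 4.6% of all promoters. A gene counted if any of its promoters matched, while the shares of all promoters count each promoter singly, so only the shares of genes are like units. A match describes the letters in this window and is no evidence of binding.

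Most cytosolic ribosomal protein genes leaned to higher values after anti-PD-1, with fewer past the test. All 25 listed members were tested, and 24 had a log2 fold change above 0, 7 were higher at an unadjusted p and 0 lower, with a median of 0.35 beside −0.20 over all well-expressed genes (0.12 without tumor 4). The 3 anti-PD-1 tumors lay above the 3 IgG tumors in 12 of the 25. Over all well-expressed genes 4.17% were higher at an unadjusted p and 5.55% were apart in that direction. Rps24, a protein of the small subunit, had 459.5, 840.6 and 828.7 CPM after anti-PD-1, 353.9, 358.7 and 441.2 CPM after IgG and between 358.6 and 482.9 CPM in untreated tumors. Rps3, another small subunit protein, had 186.4, 285.7 and 318.3 CPM after anti-PD-1 and between 161.4 and 174.0 CPM after IgG. Both were called by DESeq2 (adjusted p = 0.0413 for each), and with tumor 2 as the only anti-PD-1 tumor their log2 fold changes were 0.26 and 0.17. Rpl4, of the large subunit, went the other way with 927.7, 569.5 and 775.5 CPM after anti-PD-1 against 930.3, 1041 and 820.6 CPM after IgG (log2 fold change −0.30 ± 0.225, unadjusted p = 0.20 from edgeR). Over all 81 well-expressed genes whose symbols start with Rpl or Rps or that are Fau, a set drawn up after the values were seen, 43 had all anti-PD-1 tumors above all IgG tumors, 0 the reverse, and the median was 0.43, or 0.18 without tumor 4 and 0.17 with tumor 2 alone.

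Nuclear genes for subunits of the respiratory chain and ATP synthase followed a similar course. Of 24 listed members, 16 had a log2 fold change above 0, 9 were higher at an unadjusted p and 0 lower, and 11 were apart in the higher direction, beside the same 4.17% and 5.55% of well-expressed genes. Cox7a2, a subunit of cytochrome c oxidase, had 80.9, 144.3 and 137.6 CPM after anti-PD-1, 49.9, 40.9 and 59.1 CPM after IgG and between 97.7 and 109.0 CPM in untreated tumors, and DESeq2 called it (adjusted p = 0.0400). Atp5g1, which encodes the membrane ring of ATP synthase, had 61.8, 61.1 and 69.3 CPM after anti-PD-1, 44.1, 35.3 and 42.5 CPM after IgG and between 55.7 and 65.3 CPM in untreated tumors. In Atp5g1 the 3 anti-PD-1 tumors were close to each other and to the untreated tumors, while the IgG tumors stood below. Atp5b, the catalytic beta subunit, had 844.3, 581.0 and 840.5 CPM after anti-PD-1 and 944.0, 898.5 and 675.3 CPM after IgG, and its log2 fold change of −0.15 turned to 0.05 with the scaling from well-expressed genes. The list median against IgG was 0.23, 0.20 with tumor 2 alone and 0.05 without tumor 4. Genes encoded by mitochondrial DNA, 13 in all, had a median of −0.02, with 0 past an unadjusted p in either direction.

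**Figure D2:**
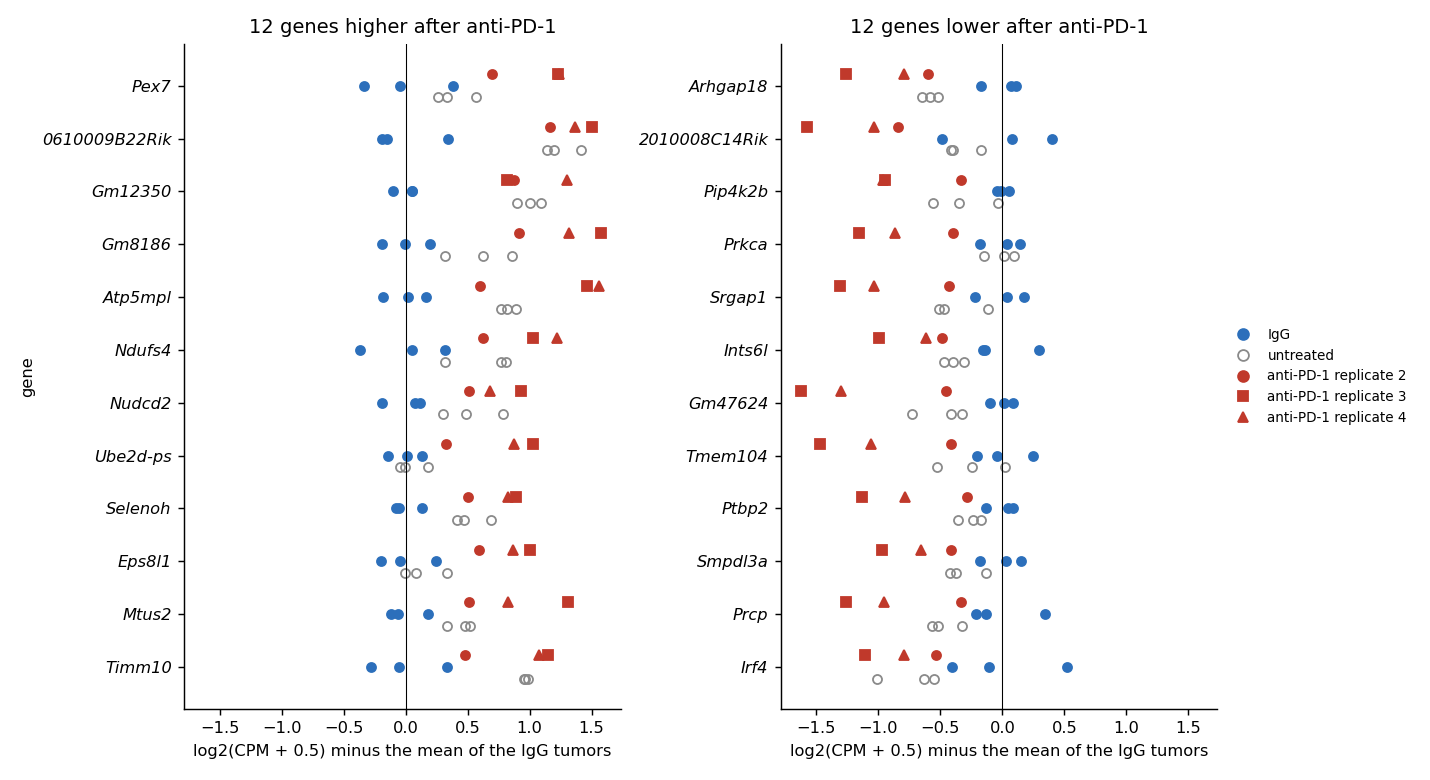
Expression of the 12 highest-ranked genes in each direction, as log2(CPM + 0.5) minus the mean of the IgG tumors, for the 3 anti-PD-1 (red; circle, square and triangle for tumors 2, 3 and 4), 3 IgG (blue) and 3 untreated (open grey) tumors. Tumor 2 lies nearest to the IgG tumors in most of these genes, and the untreated tumors lie close to the anti-PD-1 tumors in genes such as 0610009B22Rik, Gm12350 and Timm10.

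The 12 highest-ranked genes below IgG were Arhgap18, 2010008C14Rik, Pip4k2b, Prkca, Srgap1, Ints6l, Gm47624, Tmem104, Ptbp2, Smpdl3a, Prcp and Irf4, with log2 fold changes between −1.19 and −0.68 (edgeR adjusted p = 0.305 for each). They include regulators of small GTPases, a protein kinase C and a transcription factor of the interferon regulatory family.

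Arhgap18, an activator of GTP hydrolysis by small GTPases (ENSMUSG00000039031.16, chromosome 10, 26753421 to 26918648), had the smallest unadjusted p of the well-expressed genes (3.4e-05). It had 30.9, 19.4 and 26.9 CPM after anti-PD-1, 41.6, 49.3 and 50.6 CPM after IgG and between 29.8 and 32.6 CPM in untreated tumors. The IgG tumors were thus the high group, and the fold was 1.83 lower after anti-PD-1. Srgap1, which acts on small GTPases in Slit-Robo signalling, had 57.2, 30.9 and 37.6 CPM after anti-PD-1 and 66.5, 79.6 and 87.5 CPM after IgG. Its untreated tumors, with 54.2, 71.2 and 55.7 CPM, overlapped both groups.

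Prkca, protein kinase C alpha (ENSMUSG00000050965.14, chromosome 11, 107933387 to 108343928), had 39.1, 22.8 and 28.1 CPM after anti-PD-1, 52.9, 56.9 and 45.6 CPM after IgG and 52.0, 55.1 and 46.5 CPM in untreated tumors. Here the IgG and untreated tumors shared a range and all 3 anti-PD-1 tumors were below it, with a log2 fold change against IgG of −0.78 ± 0.189 (SE, n = 3 per group). Pip4k2b, a phosphoinositide kinase, had 38.6, 24.98 and 24.7 CPM after anti-PD-1 and between 47.2 and 50.6 CPM after IgG, with 32.9 to 47.5 CPM in untreated tumors.

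Irf4, an interferon regulatory factor of lymphocytes and melanocytes (ENSMUSG00000021356.10, chromosome 13, 30749226 to 30766976), had 15.5, 10.3 and 12.9 CPM after anti-PD-1, 16.98, 20.98 and 32.8 CPM after IgG and 11.03, 14.5 and 15.4 CPM in untreated tumors. Anti-PD-1 and untreated tumors overlapped, and the IgG tumors were above both. Tmem104, a predicted membrane protein, had 114.2, 54.7 and 72.6 CPM after anti-PD-1 and 147.3, 180.5 and 132.2 CPM after IgG, and DESeq2 called it (adjusted p = 0.0355). Ptbp2, a splicing regulator best known from neurons, had 69.2, 38.3 and 48.9 CPM after anti-PD-1 and between 77.1 and 89.8 CPM after IgG. In the 12 genes, tumor 2 was in each case the highest of the 3 anti-PD-1 tumors, and with tumor 2 alone the log2 fold changes were between −0.88 and −0.28.

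The IFN-γ response list held 34 genes, all tested, and tumor 2 carried most of what was seen in it. Of the 34, 28 had a log2 fold change above 0, 3 were higher at an unadjusted p (Gbp10, Tgtp1 and Igtp) and 0 lower. Over all tested genes 68.7% were above 0, 10.6% higher and 5.75% lower, so the share of higher genes was near that of all genes. The list median was 0.41 beside 0.68 over all tested genes. Its 24 well-expressed members had a median of 0.17 beside −0.20 over all well-expressed genes. Of these 24, 20 were above 0 and 1 was higher, beside 26.7% and 4.17%. Tumor 2 lay above all 3 IgG tumors in 25 of the 34 genes and below in 0, tumor 3 above in 10 and below in 7, and tumor 4 above in 3 and below in 8. Over well-expressed genes these shares were 21.9% and 10.5% in tumor 2, 12.8% and 66.9% in tumor 3, and 18.2% and 49.5% in tumor 4. The list median was 0.59 with tumor 2 as the only anti-PD-1 tumor and −0.13 without tumor 2.

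Igtp, an immunity-related GTPase also called Irgm3 (ENSMUSG00000078853.8, chromosome 11, 58199556 to 58207591), was chosen after its values were seen. It had 38.5, 20.9 and 19.5 CPM after anti-PD-1, 12.4, 13.1 and 14.1 CPM after IgG and 15.03, 17.5 and 10.004 CPM in untreated tumors. All anti-PD-1 tumors were above both other groups, and the log2 fold change was 0.99 ± 0.436 (edgeR unadjusted p = 0.035). Tgtp1, a T-cell-specific GTPase of the same family, had 13.8, 8.00 and 2.20 CPM after anti-PD-1 and 2.08, 2.41 and 1.74 CPM after IgG, so that tumor 4 overlapped the IgG tumors. Reads of Tgtp1 are hard to separate from its near-identical neighbour Tgtp2. Gbp10, a guanylate-binding protein with close paralogs, had 110, 37 and 20 counts after anti-PD-1 and 0, 2 and 9 counts after IgG, and its 3 tumors per group no longer stood apart after the background was subtracted.

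Irf1, a transcription factor that IFN-γ induces (ENSMUSG00000018899.16, chromosome 11, 53770014 to 53778374), had 55.0, 30.4 and 29.4 CPM after anti-PD-1, 24.6, 21.2 and 37.8 CPM after IgG and between 19.5 and 27.7 CPM in untreated tumors. Tumor 2 exceeded every other WT tumor, tumors 3 and 4 lay within the IgG range, and the log2 fold change was 0.46 ± 0.324 (edgeR unadjusted p = 0.17). Cxcl9, a chemokine that draws CXCR3-bearing T cells and was chosen after its values were seen, had 35.6, 11.2 and 7.46 CPM after anti-PD-1 and 9.44, 6.17 and 14.8 CPM after IgG. Its log2 fold change of 0.85 became −0.14 without tumor 2. Cxcl10, which binds the same receptor, had 166.0, 109.5 and 104.3 CPM after anti-PD-1 and 163.5, 153.1 and 69.6 CPM after IgG, and the direction of its log2 fold change (−0.02) depended on the scaling. Psme1, a proteasome activator subunit, had 155.8, 109.1 and 123.2 CPM after anti-PD-1 and 117.1, 99.1 and 126.1 CPM after IgG. In Psme1 tumor 2 was the highest of the 6, and the groups overlapped.

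Promoters of Irf1, Igtp and Tgtp1 are shown because IFN-γ acts on such genes through GAS elements and through interferon regulatory factors, which bind ISRE elements. The GAS motif searched was TTCNNNGAA and the ISRE motif was GAAA followed, after any 2 bases, by GAAA again, on both strands. The capitals mark GAS 90 to 82 bases before the start of Irf1. In Igtp they mark GAS 45 to 37 and ISRE 34 to 25 bases before it, and in Tgtp1 GAS 88 to 80 and ISRE 77 to 68.
Irf1 (chr11:53769864-53770013, plus strand): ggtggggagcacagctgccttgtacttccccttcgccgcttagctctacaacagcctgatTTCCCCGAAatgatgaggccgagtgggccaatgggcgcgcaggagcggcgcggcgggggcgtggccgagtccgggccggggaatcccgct
Igtp (chr11:58199406-58199555, plus strand): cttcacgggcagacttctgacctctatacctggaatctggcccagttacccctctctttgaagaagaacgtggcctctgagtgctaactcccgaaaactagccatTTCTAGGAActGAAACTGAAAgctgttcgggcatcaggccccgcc
Tgtp1 (chr11:48992247-48992396, minus strand): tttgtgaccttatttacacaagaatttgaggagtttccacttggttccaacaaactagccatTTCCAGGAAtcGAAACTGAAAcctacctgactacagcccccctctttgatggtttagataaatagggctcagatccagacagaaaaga
GAS matches were in 10 of 23 genes of the IFN-γ list with a promoter (43.5%), in 6 of 29 of the type I interferon list (20.7%) and in 8.3% of all promoters. ISRE matches were in 12 of 23 (52.2%), 15 of 29 (51.7%) and 3.44%. List genes counted if any of their promoters matched, and by that count the shares of well-expressed genes were 7.99% for GAS and 3.73% for ISRE. Igtp and Tgtp1 thus share both motifs at the same spacing. A link between these motifs and the levels in any tumor was not tested.

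**Figure D3:**
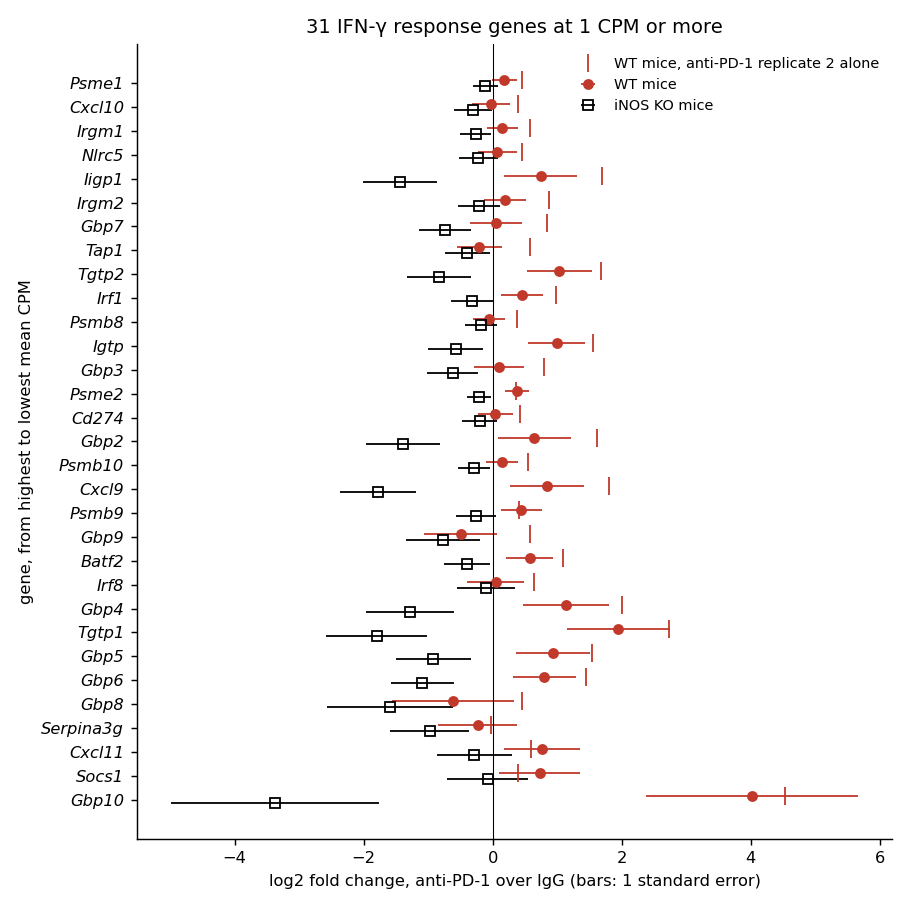
Log2 fold change of anti-PD-1 over IgG for 31 IFN-γ response genes with a mean of at least 1 CPM over 18 libraries, in WT mice (red circles) and iNOS KO mice (open squares), with bars of 1 standard error (3 tumors per group). Short red lines mark WT tumor 2 alone against IgG. The WT value exceeds the KO value in all 31, and tumor 2 alone lies to the right of the WT value in most.

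Type I interferon-stimulated genes serve antiviral defence. With all 3 anti-PD-1 tumors, their shares of higher and lower genes were close to or below those over well-expressed genes. Of 40 tested, 10 had a log2 fold change above 0 (26.7% of well-expressed genes did), 1 was higher and 5 lower at an unadjusted p (4.17% and 17.8% of well-expressed genes), and the median was −0.31. With tumor 2 alone it was 0.22 and 31 of the 40 were above 0, beside 57.4% of well-expressed genes. With 1 tumor left out the median lay between −0.69 and −0.10. Tumor 2 lay above all IgG tumors in 17 and below in 1, beside 21.9% and 10.5% of well-expressed genes. Tumor 3 lay above in 2 and below in 34, and tumor 4 above in 2 and below in 25. Of well-expressed genes, 12.8% lay above and 66.9% below in tumor 3, and 18.2% above and 49.5% below in tumor 4. A difference between this list and the IFN-γ list was not tested. Oasl1, of the oligoadenylate synthetase-like family, had 28.2, 9.38 and 11.95 CPM after anti-PD-1 and 22.2, 29.4 and 42.01 CPM after IgG. Ifi35, an interferon-induced leucine zipper protein, was the one higher gene, with 14.6, 9.71 and 14.8 CPM after anti-PD-1 and 8.96, 5.21 and 11.3 CPM after IgG. Eif2ak2, the kinase PKR that senses double-stranded RNA, had 123.0, 52.9 and 91.5 CPM after anti-PD-1 and between 117.9 and 132.2 CPM after IgG. Irf7, a factor that amplifies type I interferon, had 51.5, 13.9 and 13.4 CPM after anti-PD-1 and 24.3, 34.9 and 72.4 CPM after IgG, with a log2 fold change of −0.73 ± 0.489 that was 0.22 for tumor 2 alone.

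Among interferons, their receptors and signal transducers, 14 genes were tested, 1 had a log2 fold change above 0 and 7 were lower at an unadjusted p, beside 26.7% and 17.8% of well-expressed genes. Jak1, a kinase of both interferon receptors, had 134.3, 50.2 and 71.1 CPM after anti-PD-1 and 103.2, 131.2 and 188.8 CPM after IgG. Irf2, which can act against Irf1 at shared sites, had 86.4, 31.8 and 43.3 CPM after anti-PD-1 and 82.8, 110.4 and 101.7 CPM after IgG. Stat3 had 177.9, 76.1 and 115.3 CPM after anti-PD-1 and 154.0, 190.0 and 209.2 CPM after IgG. In each of the 3 genes tumor 2 lay within the IgG range while tumors 3 and 4 were below it. Irf3, the factor downstream of nucleic acid sensors, had 38.2, 26.6 and 35.6 CPM after anti-PD-1 and between 37.2 and 41.4 CPM after IgG (log2 fold change −0.21 ± 0.158, edgeR unadjusted p = 0.20). Ifng itself was near the limit of detection, with 0, 6 and 14 counts after anti-PD-1, 3, 6 and 14 counts after IgG and 0 counts in all 3 untreated tumors, and Ifnb1 did not pass the filter on low counts.

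Genes of T cells were low and most did not separate the groups. Of 27 T cell receptor complex and cytotoxic effector genes, 19 had a log2 fold change above 0, 1 was higher at an unadjusted p (10.6% of all tested genes were) and 0 lower. The list median was 0.30, 0.09 without tumor 3, −0.07 with tumor 2 alone and −0.09 after the background was subtracted, and 0 of the 27 were well expressed. Summed over the list, the level was 52.3, 93.8 and 46.1 CPM after anti-PD-1, 64.5, 36.6 and 62.6 CPM after IgG and between 11.1 and 23.3 CPM in untreated tumors. Both antibody groups therefore lay above the untreated tumors and overlapped each other. Cd4, the coreceptor of helper T cells, had 5.43, 10.4 and 4.68 CPM after anti-PD-1 and 1.48, 0.495 and 5.73 CPM after IgG (log2 fold change 1.41 ± 0.668, edgeR unadjusted p = 0.048). Cd8a, the coreceptor of cytotoxic T cells, had 1.11, 5.77 and 2.87 CPM after anti-PD-1 and 2.99, 1.52 and 0.629 CPM after IgG, and its log2 fold change of 0.92 became −0.59 with tumor 2 alone. Zap70, the kinase that signals from the T cell receptor, had 1.90, 7.80 and 2.96 CPM after anti-PD-1 and 0.452, 0.759 and 1.85 CPM after IgG, without overlap. Ccl5, a chemokine of activated T cells, had 9.09, 4.66 and 4.302 CPM after anti-PD-1 and 13.1, 6.599 and 9.21 CPM after IgG. Tumor 3, the highest of the anti-PD-1 tumors in Cd4, Cd8a and Zap70, was also the one with the most counts on receptor genes.

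Pdcd1, the gene of PD-1, had 11, 36 and 8 counts after anti-PD-1 and 0, 0 and 24 counts after IgG, which is too few to rank the groups. Cd274, the gene of the ligand PD-L1, had 23.6, 13.3 and 17.5 CPM after anti-PD-1, 16.3, 14.4 and 22.4 CPM after IgG and 13.9, 18.1 and 23.2 CPM in untreated tumors. The 3 groups overlapped, with a log2 fold change of 0.04 ± 0.272 (edgeR unadjusted p = 0.88). Cd276, a B7 family member also called B7-H3, had 83.8, 43.3 and 58.3 CPM after anti-PD-1 and 106.5, 105.6 and 67.3 CPM after IgG. Of the 17 tested checkpoint genes, 14 had a log2 fold change above 0, and 1 was higher and 1 lower at an unadjusted p. Over all tested genes 68.7% were above 0, 10.6% higher and 5.75% lower. The list median of 0.87, beside 0.68 over all tested genes, was 0.14 with tumor 2 alone and 0.33 without tumor 3.

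Nos2, the gene of iNOS, was read 144, 111 and 60 times after anti-PD-1, which is 4.09, 7.28 and 2.87 CPM, and stood at 1.45, 3.43 and 2.81 CPM after IgG. The lowest anti-PD-1 tumor lay between the IgG tumors, untreated tumors had 1.40, 3.28 and 3.56 CPM, and the log2 fold change against IgG was 0.88 ± 0.575 (edgeR unadjusted p = 0.14). Nos1, the neuronal synthase, had 9.18, 18.8 and 9.56 CPM after anti-PD-1 and between 6.21 and 7.40 CPM after IgG, and Nos3, the endothelial synthase, had 11.4, 13.2 and 8.08 CPM against 6.30 to 7.85 CPM. Both were apart from the IgG tumors, while the untreated tumors of Nos1, with 3.62 to 11.999 CPM, overlapped both groups. In the list of 15 genes described next, 2 were apart higher and 1 lower, beside 9.02% and 2.85% of all tested genes. Across the 15 genes of nitric oxide and arginine metabolism, 10 had a log2 fold change above 0, 1 was higher at an unadjusted p and 0 lower, near the 68.7% above 0 and 10.6% higher among all tested genes.

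Macrophage, pan-leukocyte and fibroblast genes had lower levels in tumors 3 and 4 and lay close to the IgG level in tumor 2, while neutrophil genes, which were low, stood higher in tumors 3 and 4 (1.56 and 0.54 above the IgG mean on the log2 scale). Of 19 macrophage genes, 0 had a log2 fold change above 0 and 8 were lower at an unadjusted p (median −1.14, and −0.21 with tumor 2 alone). Tumors 3 and 4 lay below all 3 IgG tumors in 17 and 18 of the 19, and tumor 2 in 1, beside 66.9%, 49.5% and 10.5% of all well-expressed genes. The share of well-expressed genes lower at an unadjusted p was 17.8%, and the counts of this and the next lists are read against it. Leaving out IgG tumor 3, which had the highest summed level of the list (8247 CPM), moved the median to −0.31. Ccr2, the receptor that recruits monocytes, had 19.38, 5.71 and 6.17 CPM after anti-PD-1, 23.7, 19.43 and 75.1 CPM after IgG and between 9.003 and 20.6 CPM in untreated tumors. The IgG tumors were spread by IgG tumor 3, and the lowest of them exceeded anti-PD-1 tumor 2 only narrowly. Mrc1, the mannose receptor of tissue macrophages, had 154.6, 55.6 and 67.5 CPM after anti-PD-1 and 123.7, 206.5 and 337.8 CPM after IgG, and DESeq2 called it (adjusted p = 0.0482) although the groups overlapped.

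Of 10 pan-leukocyte genes, 0 had a log2 fold change above 0 and 4 were lower at an unadjusted p (median −0.72, −0.11 with tumor 2 alone and −0.24 without IgG tumor 3). Laptm5, a lysosomal protein of blood cells, had 113.1, 16.9 and 31.3 CPM after anti-PD-1 and 80.0, 96.9 and 253.5 CPM after IgG. Cd74, the invariant chain of MHC class II, had 805.4, 125.3 and 157.0 CPM after anti-PD-1, 402.3, 521.1 and 1660 CPM after IgG and between 180.8 and 439.0 CPM in untreated tumors. In both genes tumor 2 lay inside the IgG range and tumors 3 and 4 below it. The 9 MHC class II genes had a median of −0.95, with 1 lower at an unadjusted p. It was 0.23 without IgG tumor 3 and 0.04 with tumor 2 alone. The 13 MHC class I and peptide loading genes had a median of −0.21, with 0 past an unadjusted p in either direction. With tumor 2 alone their median was 0.39 and 12 of the 13 were above 0, beside 57.4% of well-expressed genes.

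All 16 fibroblast and collagen genes had a log2 fold change below 0, and 9 were lower at an unadjusted p, with a median of −1.24. Tumors 3 and 4 lay below all IgG tumors in 16 of 16, and tumor 2 in 0, so that the median was −0.12 with tumor 2 alone and −2.56 without it. Col1a1, a chain of type I collagen, had 2207, 150.7 and 364.5 CPM after anti-PD-1, 1628, 2218 and 3445 CPM after IgG and 483.3, 2154 and 1221 CPM in untreated tumors. Fn1, fibronectin, had 1952, 180.5 and 413.6 CPM after anti-PD-1 and 1301, 2208 and 2962 CPM after IgG. Pdgfrb, the receptor of pericytes and fibroblasts, had 75.8, 23.1 and 32.5 CPM after anti-PD-1 and between 74.3 and 86.7 CPM after IgG. The lowest of the untreated tumors in Col1a1, at 483.3 CPM, was nearer to anti-PD-1 tumors 3 and 4 than to the other tumors. Xist, the RNA that silences 1 X chromosome in female cells, moved in the same tumors, with 432.6, 91.7 and 103.4 CPM after anti-PD-1, 273.9, 398.3 and 729.2 CPM after IgG and between 158.3 and 301.9 CPM in untreated tumors.

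**Figure D4:**
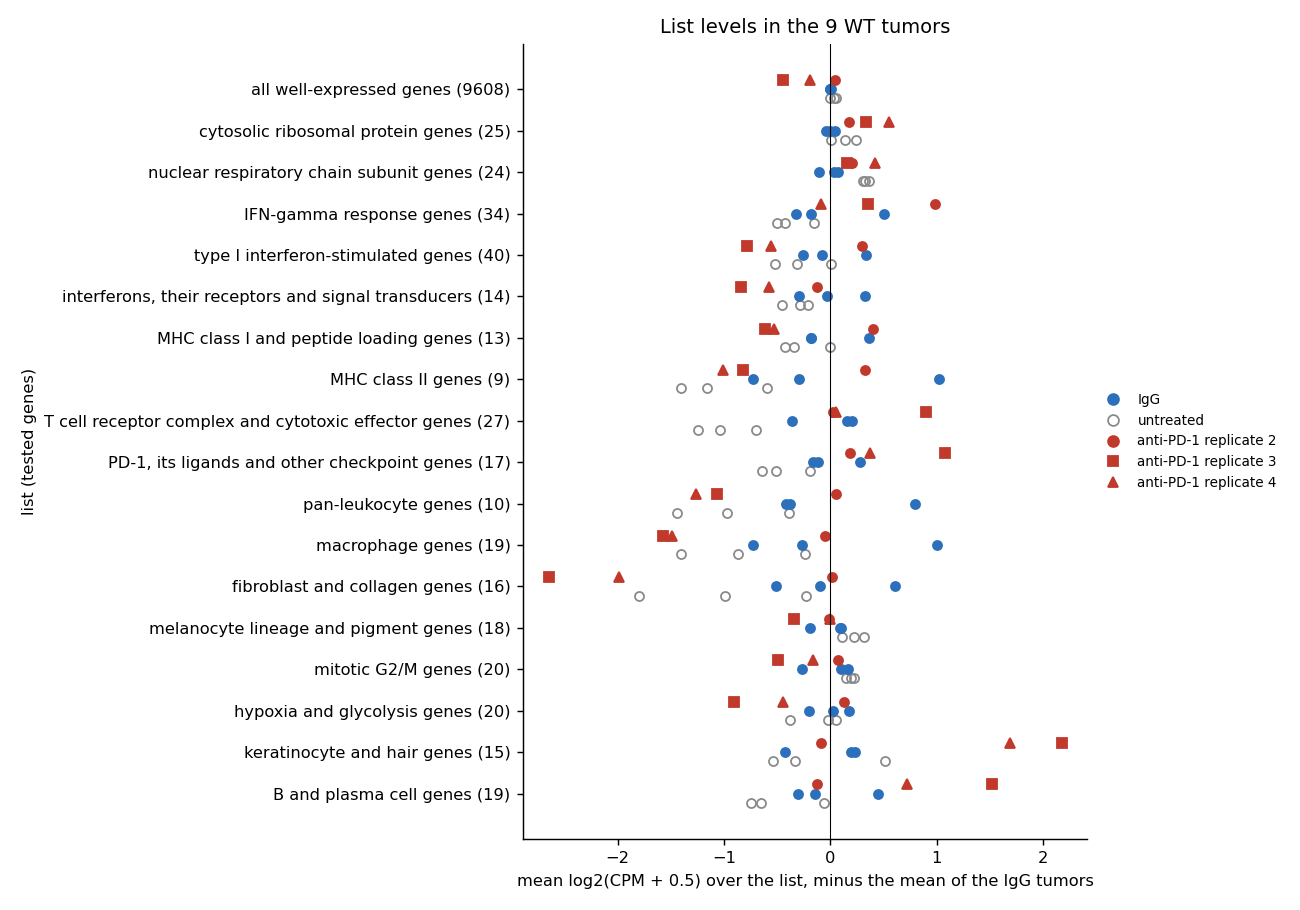
Mean log2(CPM + 0.5) over the tested genes of each list in each WT tumor, minus the mean of the 3 IgG tumors (anti-PD-1 red, with circle, square and triangle for tumors 2, 3 and 4; IgG blue; untreated open grey; number of genes in brackets). Fibroblast genes lie at 0.02, −2.65 and −1.99 in anti-PD-1 tumors 2, 3 and 4, IFN-γ response genes at 0.99, 0.35 and −0.09, and keratinocyte genes, which are low, at −0.09, 2.17 and 1.69.

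Melanocyte lineage genes gave the label check, and their median log2 fold change was small. Dct, an enzyme of pigment synthesis, had 4548, 3564 and 5404 CPM after anti-PD-1, 5200, 5751 and 4068 CPM after IgG and between 6030 and 7027 CPM in untreated tumors. Tyrp1, of the same family, had 3501, 2815 and 3650 CPM after anti-PD-1 and 4423, 4988 and 3153 CPM after IgG. Of 18 listed genes, 9 had a log2 fold change above 0, with a median of −0.02. Over well-expressed genes 26.7% were above 0, with a median of −0.20. Of the 18, 1 was lower at an unadjusted p, beside 17.8% of well-expressed genes. That gene was Ednrb, the endothelin B receptor, which melanocytes share with endothelium, with 48.8, 8.98 and 11.8 CPM after anti-PD-1 and 30.9, 55.3 and 83.7 CPM after IgG. The 12 endothelial genes had a median of −0.04, with 0 past an unadjusted p in either direction. Their median was −0.62 without tumor 2 and 0.47 with tumor 2 alone. Tumor 2 lay above all IgG tumors in 9 of the 12, beside 21.9% of well-expressed genes.

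Of 20 mitotic genes, 3 had a log2 fold change above 0, 1 was higher and 3 lower at an unadjusted p, which is near the 4.17% and 17.8% of well-expressed genes. Cdk1, the kinase that drives entry into mitosis, had 52.6, 59.0 and 60.4 CPM after anti-PD-1, 43.9, 38.3 and 43.6 CPM after IgG and between 60.002 and 63.3 CPM in untreated tumors. Mki67, a marker of cycling cells, had 1415, 636.6 and 942.2 CPM after anti-PD-1 and 1710, 1832 and 1074 CPM after IgG, and DESeq2 called it (adjusted p = 0.0489). Cdk1 and Mki67, genes of the same process, thus lay on opposite sides, and the reason was not tested.

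Of 20 hypoxia and glycolysis genes, 1 had a log2 fold change above 0, 3 were lower and 0 higher at an unadjusted p (17.8% of well-expressed genes were lower), and the median was −0.30, or 0.16 with tumor 2 alone and −0.03 without tumor 3. Vegfa, the main growth factor of blood vessels, had 629.9, 212.9 and 374.9 CPM after anti-PD-1 and 523.6, 754.1 and 740.5 CPM after IgG. P4ha1, a collagen prolyl hydroxylase, had 105.8, 55.0 and 72.3 CPM after anti-PD-1 and between 98.3 and 122.4 CPM after IgG. In Vegfa and P4ha1, tumor 2 was within the IgG range and tumors 3 and 4 below it. Among 12 NRF2 targets, which serve defence against oxidants, an unadjusted p under 0.05 went to 3 that were higher and 2 that were lower. Over all tested genes these shares were 10.6% and 5.75%. Of the 10 well-expressed targets 1 was higher and 2 lower, beside 4.17% and 17.8% of well-expressed genes. Gsta4, a glutathione transferase, had 70.3, 72.4 and 84.3 CPM against 61.6, 57.1 and 36.9 CPM after IgG. Hmox1, heme oxygenase 1, had 96.5, 35.9 and 51.5 CPM against 86.3, 127.6 and 122.4 CPM. Beside 17.8% and 4.17% of well-expressed genes, 2 of 15 integrated stress response genes were lower and 0 higher. Aldh1l2, a mitochondrial folate enzyme, was one of them, with 114.1, 55.2 and 71.1 CPM after anti-PD-1 and 118.9, 128.0 and 142.4 CPM after IgG, and DESeq2 called it (adjusted p = 0.0456).

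Several lists of low-count genes had high medians that came with tumors 3 and 4. Of 15 keratinocyte and hair genes, 14 had a log2 fold change above 0, beside 68.7% of all tested genes. The median was 2.64, and −0.19 with tumor 2 alone. The list summed to only 19.8, 73.6 and 53.2 CPM after anti-PD-1 and to between 14.7 and 20.1 CPM after IgG. The 13 neutrophil genes had a median of 2.20, −0.75 with tumor 2 alone and 0.23 without tumor 3, and the 19 B and plasma cell genes 1.89 and −0.94. The receptor genes themselves, 907 tested, had a median of 3.41, and −3.89 with tumor 2 alone. The latter rests on very low counts, 0.32 per kb of receptor exon in tumor 2. Summed receptor levels were 50.7 CPM in tumor 2 and 56.3, 121 and 234 CPM in the IgG tumors. The 8 NK cell genes had a median of 1.03, 0.39 with tumor 2 alone and 2.77 without IgG tumor 3, with 0 past an unadjusted p. Dendritic cell, muscle, adipocyte and erythroid genes had medians of 0.26, 0.46, 0.08 and 1.96. With 1 tumor left out the first 3 ranged from −0.09 to 0.80, from −0.01 to 3.01 (without IgG tumor 1 and without IgG tumor 2) and from −0.29 to 1.89 (without IgG tumor 1 and without IgG tumor 3). Of these lists, 1 erythroid gene was higher and 1 lower at an unadjusted p, with 0 in the other 3 lists. When the background was subtracted, or its level used as a covariate, the medians became 0.68 and −0.03 for neutrophil, 1.46 and −0.57 for B and plasma cell, and 2.65 and 1.19 for keratinocyte genes.

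Exonic length went with the difference. In 4 equal groups of the well-expressed genes by exonic length, 2402 genes each, from 0.06 to 3.18 kb up to 7.55 to 123.18 kb, the median log2 fold change was −0.03, −0.17, −0.23 and −0.31. In these groups 169, 321, 481 and 735 genes were lower at an unadjusted p, and the share higher was 10.9%, 2.62%, 1.62% and 1.54%. Median exonic length was 2.51 kb in the 506 higher genes, 6.97 kb in the 575 lower genes and 4.97 kb in all well-expressed genes. Spearman's correlation between log2 fold change and length was −0.32 across the 9608 genes, −0.39 after the background was subtracted and −0.25 with tumor 2 alone, across genes that share the same libraries. It was −0.27 for anti-PD-1 over untreated WT tumors and 0.15 for IgG over untreated WT tumors, contrasts that share tumors with this one, and −0.19 for anti-PD-1 over IgG in iNOS KO mice. Ribosomal and respiratory chain genes are among the short ones, with a median of 1.77 kb in the 81 ribosomal protein genes and 1.53 kb in 36 complex I genes, so their values and their length cannot be told apart here.

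**Figure D5:**
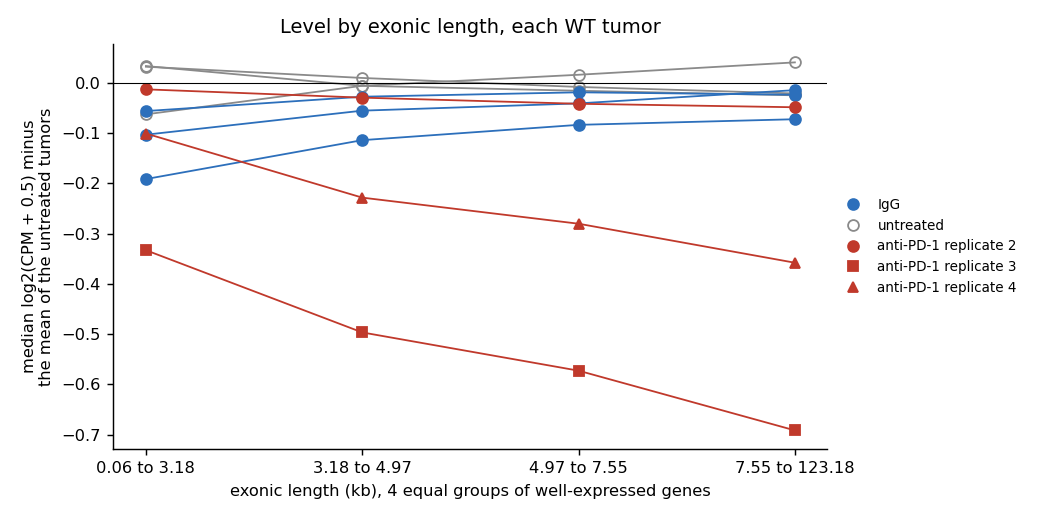
Median log2(CPM + 0.5) of each WT tumor minus the mean of the 3 untreated tumors, in 4 equal groups of the well-expressed genes by exonic length (kb). Anti-PD-1 tumors 3 and 4 (square and triangle) slope down from −0.33 and −0.10 in the shortest genes to −0.69 and −0.36 in the longest, tumor 2 stays between −0.05 and −0.01, and the IgG tumors (blue) are lowest in the shortest genes.

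The same contrast in iNOS KO mice, with 3 anti-PD-1 and 3 IgG tumors of its own, was used to ask whether the host's Nos2 gene altered the difference. In the edgeR test of that interaction, 0 of 30837 genes (0.0%) had an adjusted p under 0.05, and at an unadjusted p the WT difference was the higher one in 71 well-expressed genes (0.739%) and the lower one in 263 (2.74%), beside 6.44% and 0.973% of all tested genes. DESeq2 called 19 genes and edgeR without the filter called 270. In all 34 genes of the IFN-γ list the WT fold change exceeded the KO fold change, which was so in 64.3% of all tested and 24.9% of well-expressed genes, and 11 of the 34 reached an unadjusted p under 0.05. The 11 were Cxcl9, Gbp2, Gbp4, Gbp5, Gbp6, Gbp10, Igtp, Iigp1, Tgtp1, Tgtp2 and Psme2, most of them named only after their values were seen. The list median was 0.41 in WT and −0.39 in KO mice.

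The KO tumors varied widely as well. Igtp had 14.4, 20.8 and 18.4 CPM in KO anti-PD-1 tumors and 22.5, 11.6 and 45.7 CPM in KO IgG tumors, and the interaction was 1.57 ± 0.617 on the log2 scale (edgeR adjusted p = 0.67). Cxcl9 had 3.21, 8.21 and 4.72 CPM in KO anti-PD-1 tumors and 19.7, 6.48 and 28.9 CPM in KO IgG tumors, with an interaction of 2.62 ± 0.824 (edgeR adjusted p = 0.67). In both genes the KO IgG tumors ranged more widely than the KO anti-PD-1 tumors, and in Cxcl9 the high values were those of WT tumor 2 and of 2 KO IgG tumors. Mitochondrially encoded and NK cell genes also had a higher WT than KO fold change in all of their 13 and 8 members, while macrophage and fibroblast genes had it in 0 of 19 and 0 of 16.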

How the data were processed

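RNA was measured in 48 tumors, of which the 18 of the second experiment were fitted together. According to the authors' methods and the submitters' processing notes, adapters were removed with cutadapt 1.8.1, reads were aligned to mm10 with STAR 2.7.7a, and read counts per gene of GENCODE vM21 were estimated with RSEM 1.3.0 from strand-specific libraries. The deposited table holds whole-number, not normalized counts as the authors made them. The table is named after a different counter from RSEM, and which of them gave the values could not be read from the table. All 55450 gene identifiers matched vM21 (GRCm38).

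Groups came from the titles. The fit was edgeR 4.0.16 (R 4.3.3, limma 3.58.1) with TMM, filterByExpr at a minimum count of 10, a coefficient for each of 6 groups, 12 residual degrees of freedom and the quasi-likelihood F-test, Benjamini-Hochberg adjusted over 30837 genes at 0.05. The common coefficient of variation was 0.786. CPM values use TMM-adjusted totals, and log2 levels add 0.5 CPM. A count of 0 allows up to 3 counts, for counting error only. The background rate was the count on 1502 receptor genes over their 5506.1 kb of exons. Copies were sought among replicates: chi-square per gene was 22.1 to 133, so none were.

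Genes were named by rule: the 12 per direction with the smallest unadjusted p among well-expressed genes whose tumors did not overlap with and without background subtraction, 10 genes around PD-1 and interferon, and from each of 29 lists up to 4 members by level and p. Not all are reported. The members and lists were chosen with earlier results of these data known. Alternatives were DESeq2 1.42.0, other scalings and filters, fewer libraries, pooled controls, background subtraction or covariate, a replicate block, each replicate left out, and, chosen after seeing the data, both tumors 3 and 4 left out. On simulated data with 200 genes changed 4-fold, the fit called 73, including 61 of 63 well-expressed ones, and 0 others. The simulated counts varied independently around 1 mean per gene, without shifts shared across genes or stray counts as in tumors 3 and 4. Changes smaller than 4-fold were not simulated, so the power for the differences described here was not tested. Tables were made with scipy 1.17.1, numpy 2.4.6 and pandas 2.3.3 and figures with matplotlib 3.10.9, all under Python 3.11.15.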

Additional observations from a re-analysis of the deposited data

How the results depend on the processing

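The count of 0 adjusted calls was 0 under all alternatives except 982 without the filter on low counts, 324 with DESeq2 and, with 1 tumor left out, 0 to 2271, and the interaction count was 0 except 270 without the filter and 19 with DESeq2. Well-expressed genes higher at an unadjusted p (401) became 617 with DESeq2 size factors, 1252 with scaling from well-expressed genes, 216 without the filter, 1301 with only well-expressed genes fitted, 633 with DESeq2, 727 with background subtracted, 250 with background as a covariate, 246 with IgG and untreated tumors pooled and 71 without tumors 3 and 4, and lay between 76 and 480 with 1 tumor left out. Those lower (1706) became 996, 906, 426 with only the 6 libraries, 772 with only the WT libraries, 563 with the covariate and 7 without tumors 3 and 4, and lay between 166 and 3870 with 1 tumor left out. The cause was not tested.

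The replicate block gave 0 calls, 275 higher and 2020 lower, and −0.12 for Cd274 and −0.69 for Ifng. Numbers 2 and 3 are shared between the groups, with correlations of 0.0007 and 0.18, so they were not taken as pairs.

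Of 73 genes followed, 63 kept their direction in every alternative that was run. Many of the 73 were named because their tumors did not overlap or their p was small. The count is therefore partly set by that choice and is no measure of stability over all genes. Log2 fold changes that turned were, for Cxcl10, 0.038 with both DESeq2 and its size factors, 0.18 and 0.20 with scaling from or fitting of well-expressed genes, 0.12 with background subtracted, 0.27 with the covariate and 0.40 without tumors 3 and 4. They were 0.051, 0.064, 0.051 (covariate) and 0.029 (without tumors 3 and 4) for Atp5b and 0.060, 0.073 and 0.0050 (background subtracted) for Dct. For Cd274 the value was −0.030 without the filter and for Ifng −0.76 with background subtracted and −2.19 with the covariate. Without tumors 3 and 4, Cd8a was at −0.59, Irf7 at 0.22, Ifng at −6.30, Eif2ak2 at 0.0018 and Rpl4 at 0.012. With 1 tumor left out the ranges were −0.21 to 0.28 for Cd274, −0.79 to 1.24 for Ifng, −0.35 to 0.18 for Cxcl10, −0.14 to 1.20 for Cxcl9, −0.33 to 0.059 for Atp5b and −0.41 to 0.048 for Dct. DESeq2 gave no adjusted p to 7468 well-expressed genes. Depth limits genes under 10 CPM in tumors 3 and 4.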
